A study of Mus musculus with 6 samples.

Results

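The interferon pathway carries a signal from a sensed nucleic acid or a secreted interferon to a set of induced antiviral genes, and 45 genes of it are described here in mouse cells whose label is lymphatic endothelial. The genes were chosen by symbol, with the receptors, kinases, transcription factors and sensors (18 genes) kept apart from the induced targets (27 genes). Of the 45 symbols, 42 are among the 15528 symbols of the count table. The tables hold symbols with at least 1 count in the 6 libraries, and Mx1, Mx2 and Ifi44 are not among them.

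Messenger RNA was sequenced from 3 control libraries and from 3 libraries of cells treated with red blood cells, all collected at 24 h. The series title concerns how the brain and the cervical lymph nodes affect each other after subarachnoid hemorrhage in mice, and the comparison asks which transcripts of these cells differ when red blood cells are present. No strain, age, genotype or culture source is given in the labels, and nothing in them says that replicates came from separate cultures, so the p-values below rest on a spread between libraries that may be only technical. In bulk RNA, fewer cells of a type and less RNA per cell cannot be told apart.

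Type I interferons bind a receptor made of Ifnar1 and Ifnar2, and interferon gamma binds Ifngr1 with Ifngr2. The receptors activate Jak1, Tyk2 and Jak2, which phosphorylate STAT proteins. A complex of STAT proteins with Irf9 binds the interferon-stimulated response element (ISRE), while STAT pairs bind the gamma-activated site (GAS). Upstream of the interferon genes, Ifih1 senses double-stranded RNA and signals through Mavs, and Cgas senses cytosolic DNA and signals through Sting1. Both branches meet at the kinase Tbk1, which activates Irf3. Irf1 is known to respond also to NF-kB.

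The 6 libraries held 17263359 to 18381419 counts each. Control replicate 2 stood apart, at 28.1 and 26.7 from controls 1 and 3 (chi-square of the counts divided by the number of genes), which were 1.99 apart, while the 3 treated libraries differed among themselves by 1.73 to 2.13. Values without it are given where they change a call. Markers of lymphatic endothelium were mixed. Prox1, Lyve1, Ccl21a and Mmrn1 are not listed, and 4 of the 8 listed markers lay under 0.5 CPM in the controls (CPM, counts per 1000000 counts of the library). The others, Nrp2, Nr2f2, Stab1 and Flt4, had 272, 161, 30.9 and 3.62 CPM. Listed endothelial markers summed to 112 to 124 CPM in the controls. Those of fibroblasts and mural cells summed to 443 to 494 CPM, and those of epithelial and mesothelial cells to 658 to 738 CPM. Few genes made up most of these sums. Eng had a control mean of 99.3 CPM, Col1a2 464, Krt8 448 and Msln 187. Under 0.5 CPM in the controls were 5 of 9 listed endothelial, 6 of 10 fibroblast and mural, and 3 of 8 epithelial and mesothelial markers. The sums are not scaled by gene length. The cells are therefore called by their label only.

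Promoter stretches of 8 genes are shown because they hold the letters that interferon- or NF-kB-activated factors are known to bind, in genes that span those called higher, those near 0 and those in between. They are taken from RefSeq, build GRCm38.p6, which is not the build GRCm39 that the submitters name, and were matched by symbol. Capitals mark an ISRE (GAAA, any 2 bases, GAAA), a GAS (TTC, any 3 bases, GAA) or a kappaB match (GGGA, any base, TTTCC, or GGGAA, any base, TTCC), each searched on both strands. All stretches end before the RefSeq transcription start and read 5′ to 3′ on the strand of the gene. For Ifngr2, Gbp3 and Ifit1 the bases after that start were not found in a GENCODE M21 transcript of the gene, so their starts are less sure.
Irf1 (GAS; chr11:53769908-53769948, plus strand): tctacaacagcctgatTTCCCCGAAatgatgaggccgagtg
Ifngr2 (kappaB; chr16:91546968-91547009, plus strand): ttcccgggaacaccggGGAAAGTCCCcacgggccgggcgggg
Gbp2 (ISRE; chr3:142620588-142620629, plus strand): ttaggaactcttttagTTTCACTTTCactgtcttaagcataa
Gbp3 (2 overlapping ISRE; chr3:142559983-142560030, plus strand): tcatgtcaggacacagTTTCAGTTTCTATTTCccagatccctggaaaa
Isg15 (3 overlapping ISRE; chr4:156200859-156200912, minus strand): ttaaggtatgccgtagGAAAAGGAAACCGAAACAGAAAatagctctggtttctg
Ifit1 (2 ISRE; chr19:34640769-34640829, plus strand): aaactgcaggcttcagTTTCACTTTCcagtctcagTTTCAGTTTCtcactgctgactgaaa
Rsad2 (ISRE; chr12:26456547-26456588, minus strand): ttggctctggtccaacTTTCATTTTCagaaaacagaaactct
Cxcl10 (ISRE, then kappaB; chr5:92349023-92349118, minus strand): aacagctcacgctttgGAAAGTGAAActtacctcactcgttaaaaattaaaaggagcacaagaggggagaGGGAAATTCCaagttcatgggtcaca

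Windows of 300 bases, from 250 before to 50 after a start, were held for 38 of the 45 genes. An ISRE lay in a window of 13 of these 38 genes (34.2%), against 3.99% of all 27025 genes with a window. A GAS lay in 11 (28.9%, against 9.55%), and a kappaB match in 2, Ifngr2 and Gbp2 (5.26%, against 0.751%). Among the induced targets 10 of 21 held an ISRE. A match is a string of letters and not a bound site, and a window without a match says nothing about the factor.

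With red blood cells, Irf1 and Parp14 rose, and no other member was called by edgeR. Of the 42 listed genes 34 had enough counts to be tested, and 2 were called higher and 0 lower by edgeR's quasi-likelihood test (Benjamini-Hochberg adjusted p under 0.05 over 11208 genes). That is 5.88% of the tested members, while 1.46% of all tested genes were called, 1.16% higher and 0.303% lower. At an unadjusted p under 0.05, 7 members were higher and 0 lower, beside 5.42% and 4.58% of all genes (9.99% in either direction). The 3 treated libraries lay above all 3 controls for 8 members and below them for 0, beside 10.4% and 9.19% of all genes (19.6% in either direction). DESeq2 called 1 member, Irf1, higher and 0 lower, and 2.11% of all genes, 1.51% higher and 0.598% lower.

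Positive fold changes were common but small and rested partly on control replicate 2. With 6 libraries 27 of 34 members (79.4%) had a log2 fold change above 0 and the median was 0.09, against 49% and a median of -0.003 over all tested genes. Without control replicate 2 there were 18 of 34 (52.9%) with a median of 0.02. In that fit 6 members were called higher, Ifngr2, Irf1, Gbp2, Gbp3, Nmi and Parp14, and 0 lower. This was 17.6% of the tested members, where 7.96% of all genes were called, 4.19% higher and 3.77% lower.

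**Figure D1:**
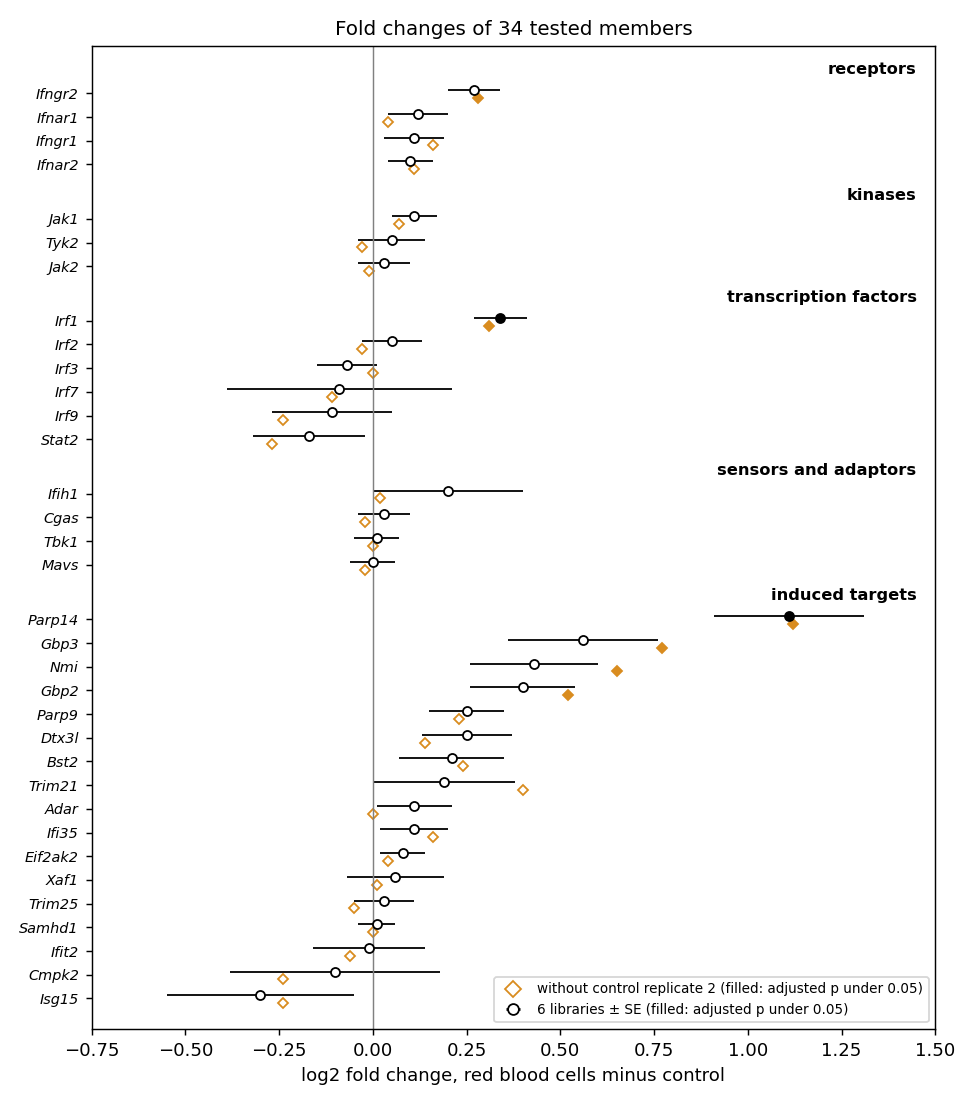
Log2 fold change (red blood cells minus control, horizontal axis) of the 34 tested members, grouped by role. Circles with bars are the fit of 6 libraries ± SE, filled where the adjusted p was under 0.05 (Irf1 and Parp14), and diamonds are the fit without control replicate 2, filled for 6 members.

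The receptor chains were all expressed and none was called by edgeR with 6 libraries. Per gene length, the controls had 12.8 ± 0.814 FPKM (counts per kilobase of gene model and 1000000 counts of the library; SD, n = 3) of Ifngr1, 11.4 ± 0.339 of Ifngr2, 8.27 ± 0.813 of Ifnar1 and 4.45 ± 0.19 of Ifnar2. Ifngr2, the signalling chain of the interferon gamma receptor and the gene with the kappaB letters above, had 23.1, 24.4 and 24.3 CPM in the controls and 26.7, 29.2 and 30.5 CPM in the treated libraries. Every treated library was above every control for Ifngr2, by 1.2-fold on average (log2 fold change 0.27 ± 0.07 SE), but edgeR's adjusted p was 0.18. Without control replicate 2 the Ifngr2 value was 0.28 with an edgeR adjusted p of 0.0042. With 6 libraries Ifngr2 also passed in limma's voom with library quality weights (0.27, adjusted p = 0.011) and in edgeR with an offset for gene length (0.31, adjusted p = 0.039). Those fits called 651 and 341 genes over the whole table, against 164 in the main fit. Ifngr2 did not pass in DESeq2 (adjusted p = 0.24), in voom without weights (0.18) or in edgeR with a replicate block (0.25). Nor did it pass with any library other than control replicate 2 left out (edgeR adjusted p up to 0.68).

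Ifngr1, the chain that binds interferon gamma, had 25.5, 28.9 and 26.7 CPM in the controls and 31.0, 28.1 and 28.3 CPM with red blood cells, and the groups overlapped. Ifnar1 had 63.1, 51.8 and 59.2 against 63.3, 64.0 and 61.1 CPM, where only control replicate 1 reaches into the treated range. Ifnar2 had 27.7, 29.5 and 30.2 against 30.8, 31.9 and 31.1 CPM, without overlap. The log2 fold changes of these 3 chains lay close together, at 0.11, 0.12 and 0.10, each with an SE of 0.06 to 0.08, and that of Ifnar1 was 0.04 without control replicate 2.

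Among the kinases Jak1 was by far the most abundant and none was called. Jak1, which serves all interferon receptors, had 36.1 ± 1.98 FPKM in the controls, against 3.56 ± 0.195 of Jak2, the partner in interferon gamma signalling, and 3.32 ± 0.333 of Tyk2, the partner in type I signalling. In CPM Jak1 had 216, 196 and 216 in the controls and 224, 231 and 222 with red blood cells. The groups did not overlap for Jak1, and its log2 fold change was 0.11 ± 0.06 (SE). Jak2 had 41.1, 36.8 and 38.7 against 37.3, 39.9 and 41.9 CPM, and Tyk2 18.8, 15.4 and 17.3 against 19.0, 16.8 and 17.3 CPM. Both overlapped between the groups, with log2 fold changes of 0.03 ± 0.07 and 0.05 ± 0.09 that turned to -0.01 and -0.03 without control replicate 2.

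Irf1 was the only transcription factor of the set that rose. Irf1, an activator of interferon-stimulated and antigen presentation genes, had 27.1, 25.6 and 27.4 CPM in the controls and 35.6, 32.8 and 33.0 CPM with red blood cells. All treated libraries were above all controls, and the change was 1.27-fold (log2 fold change 0.34 ± 0.07 SE, edgeR adjusted p = 0.042). The call was kept without control replicate 2 (0.31, adjusted p = 0.00038) and was lost without control replicate 1 or 3 or any treated library, with edgeR adjusted p up to 0.25, while the log2 fold change stayed between 0.30 and 0.37. Its level in the controls, 7.95 ± 0.285 FPKM, was below that of Irf3 and above those of Irf2, Irf9, Stat2 and Irf7.

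The factors of the type I response showed no call in either direction. Stat2 had 6.78, 4.84 and 5.44 CPM in the controls and 5.50, 4.64 and 5.0 CPM with red blood cells, overlapping, with a log2 fold change of -0.17 ± 0.15 (SE). Irf9, which binds DNA for the STAT complex, had 5.77 ± 1.05 and 5.34 ± 0.717 CPM. Irf7, an interferon-induced factor that amplifies interferon production, had 0.424 ± 0.13 FPKM in the controls, the lowest level of the 6 factors, with 18, 14 and 10 counts against 15, 12 and 13.

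Irf3, the constitutive factor that Tbk1 activates, was the most abundant factor at 19.1 ± 1.51 FPKM and had 28.9, 33.4 and 29.6 against 29.4, 27.9 and 30.3 CPM. Irf2, which antagonises Irf1 at shared sites, had 26.2, 21.7 and 24.8 against 25.2, 25.3 and 24.4 CPM. Neither set of libraries separated, and the log2 fold changes were -0.07 ± 0.08 and 0.05 ± 0.08 (SE). Irf3 overlaps Bcl2l12 on the opposite strand in GENCODE M21; the strand setting of the counting is not given, so reads of the pair may not be told apart.

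The sensing machinery was expressed with the exception of Sting1, and none of its members was called. Mavs, the adaptor on mitochondria, had 95.6, 89.2 and 92.5 CPM in the controls and 94.5, 94.8 and 88.3 CPM with red blood cells. Tbk1 had 52.5, 48.6 and 47.9 against 49.4, 52.5 and 48.3 CPM, and Cgas 42.2, 36.4 and 38.4 against 40.2, 39.3 and 39.6 CPM. For all 3 genes the treated range lay within or across the control range, and the log2 fold changes were 0.00 ± 0.06, 0.01 ± 0.06 and 0.03 ± 0.07 (SE). Ifih1, which is itself interferon-induced, was much lower at 0.399 ± 0.0946 FPKM, with 2.32, 1.69 and 2.75 against 2.33, 2.78 and 2.61 CPM.

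Sting1, the adaptor that passes the Cgas signal on, was near 0 in both groups. It had 4, 6 and 2 counts in the controls and 5, 7 and 0 counts with red blood cells, a ratio of 0.984 (exact Clopper-Pearson 95% interval 0.404 to 2.40, counting error only). Per gene length its 0.0961 ± 0.0462 FPKM in the controls compares with 9.54 ± 0.719 FPKM of Cgas, 16.4 ± 0.813 of Tbk1 and 24.8 ± 0.86 of Mavs. Within the DNA-sensing branch, Sting1 was thus measured at a far lower level than Cgas and Tbk1 in the same libraries.

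**Figure D2:**
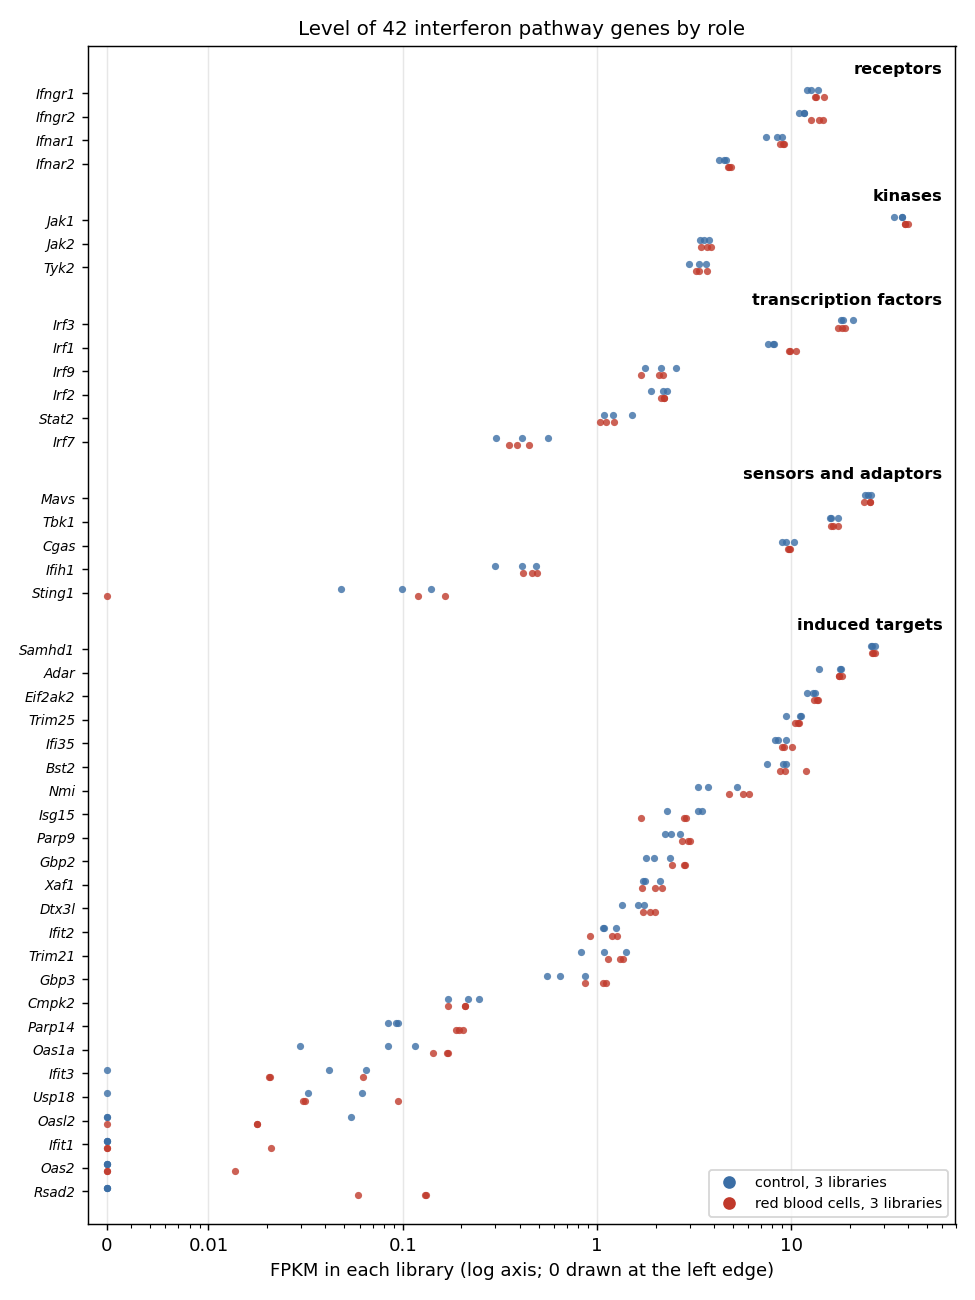
FPKM of the 42 listed members in each library (log axis, 0 drawn at the left edge), blue for the 3 controls and red for the 3 treated libraries, sorted within role by the control mean. The signalling genes mostly lie between 1 and 40 FPKM, while Sting1, Irf7, Ifih1 and 9 induced targets lie under 0.5 FPKM in the controls.

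Many of the induced targets were barely detected. Of 27 induced targets 24 are listed and 17 were tested; the 7 others had 0 to 22 counts over a group. Ifit1 and Oas2, an antiviral RNA-binding protein and an oligoadenylate synthetase, had 0 counts in the controls and 1 each with red blood cells, which allows up to 0.0561 CPM in the controls (3 counts over the group). Ifit3 had 5 and 5 counts, Oasl2 3 and 2, and Usp18, the protease that removes Isg15 from proteins, 3 and 5, too few to tell a difference at this depth. Oas1a had 1, 3 and 4 counts against 5, 6 and 6, a ratio of 2.09 whose exact 95% interval, 0.856 to 5.60, includes no difference. Reads of Oas1a and Oas1g, and of the Ifit genes, can be shared between close copies, so their split is uncertain.

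Isg15, Cmpk2 and Ifit2, induced targets with enough counts to be tested, were not called, with log2 fold changes below 0. Isg15, the ubiquitin-like modifier whose promoter stretch above holds 3 overlapping ISRE matches, had 1.74, 2.50 and 2.63 CPM in the controls and 1.28, 2.13 and 2.17 CPM with red blood cells (log2 fold change -0.30 ± 0.25 SE, edgeR adjusted p = 0.68). Ifit2, an RNA-binding inhibitor of translation, had 4.75, 4.68 and 5.49 against 5.56, 5.24 and 4.0 CPM (-0.01 ± 0.15). Cmpk2, a mitochondrial nucleotide kinase, had 12, 10 and 14 against 12, 10 and 12 counts. In all 3 genes the groups overlapped.

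Rsad2, the antiviral enzyme viperin, was detected in the treated libraries only. It had 0 counts in each control and 9, 9 and 4 counts with red blood cells, which is at least 7.22-fold higher when 3 counts over the controls are taken as the floor. It was too low for the main test, and without a low-count filter edgeR's adjusted p was 0.055. The level stayed small, at 0.404 ± 0.158 CPM (SD, n = 3). Cmpk2, the next gene to Rsad2 in RefSeq, had counts in every control, as given above.

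Leukocyte transcripts appeared in the same 3 libraries. Of 18 leukocyte markers 16 are listed, 6 were tested and 4 were called higher. These 4, Ptprc, Cd74, Lyz2 and Adgre1, passed the count filter only through the treated libraries. Being tested thus nearly fixed their calls, which add nothing to the counts. The summed level of the listed markers was 42.4 to 48.7 CPM in the controls and 51.4 to 56.8 CPM in the treated libraries. Most of it came from Csf1r and Cd68, which had 25.0 and 20.6 CPM in the controls. Ptprc, Cd74, Tyrobp and Adgre1 were at 0 in all controls, and Ptprc had 12, 13 and 11 counts, Adgre1 16, 15 and 17 counts and Cd74 19, 21 and 27 counts with red blood cells. Summed erythroid markers went from 39.9 to 44.6 CPM up to 579 to 666 CPM. Of 6 markers of plasmacytoid dendritic cells, a cell type known for interferon production, 4 are listed, with a sum of 64.7 to 73.7 CPM in the controls and 73.0 to 76.2 CPM with red blood cells, mostly Tcf4. Bst2 and Tcf4 were tested and not called, Siglech had 1 count in the controls and 0 with red blood cells, and Ly6d had 0 in every control and 16, 1 and 4 counts with red blood cells. The part of added blood cells in the counts of Rsad2 was not tested. Nor was it tested for Parp14, Cxcl10 and the leukocyte-type genes, given further on, or for any other gene.

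**Figure D3:**
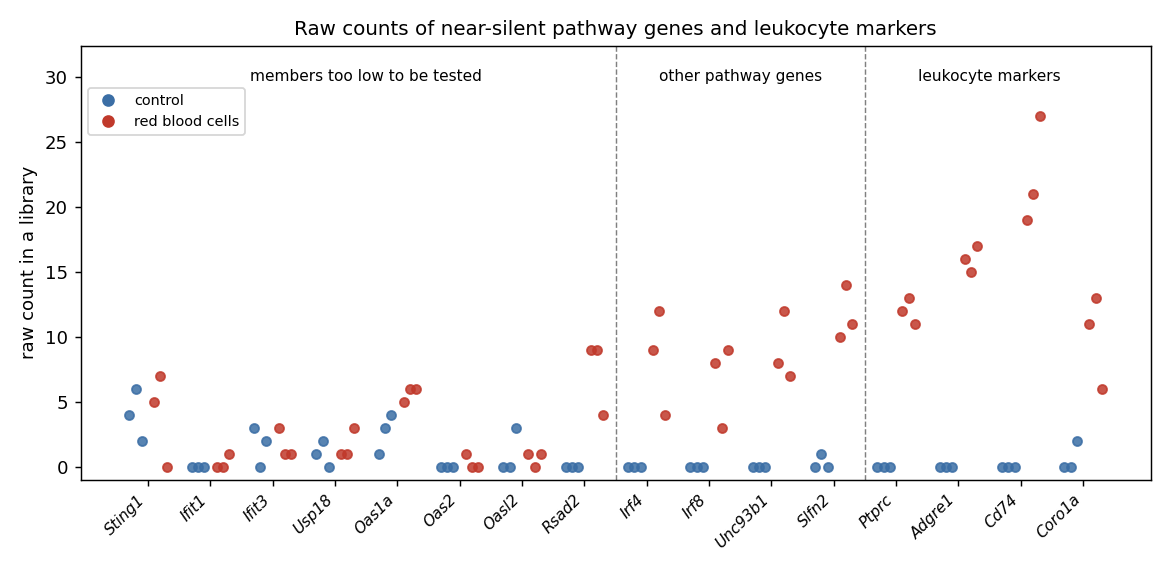
Raw count in each library (vertical axis) of the 8 members too low to be tested, of 4 other pathway genes and of 4 leukocyte markers, blue for controls and red for treated libraries. Rsad2, Irf4, Irf8 and Unc93b1 are at 0 in the 3 controls, as are Ptprc, Adgre1 and Cd74, while Ifit1, Ifit3 and Oas2 stay at 0 to 3 counts in both groups.

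Parp14 was the only induced target that edgeR called with 6 libraries, at a low level. Parp14, a mono-ADP-ribosyltransferase, had 12, 14 and 14 counts in the controls and 28, 31 and 29 counts with red blood cells, or 0.695, 0.762 and 0.785 against 1.56, 1.69 and 1.61 CPM. The groups were clearly separate, by 2.16-fold (log2 fold change 1.11 ± 0.20 SE, edgeR adjusted p = 0.032). Its size varied little when a library was left out (1.06 to 1.15), but the call was kept only without control replicate 2 (adjusted p = 0.012) and was lost without control replicate 1 or 3 or any treated library (edgeR adjusted p up to 0.17). DESeq2 gave an adjusted p of 0.086. Per gene length Parp14 had the lowest control level of the 17 tested targets, at 0.0901 ± 0.00561 FPKM in the controls and 0.195 ± 0.00824 with red blood cells.

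Parp9 and Dtx3l, partners in 1 ADP-ribosylation and ubiquitin ligase complex, had smaller differences. Parp9 had 10.5, 9.36 and 8.80 CPM in the controls and 11.8, 11.5 and 10.7 CPM with red blood cells, without overlap (log2 fold change 0.25 ± 0.10 SE, edgeR adjusted p = 0.43). Dtx3l had 8.46, 6.96 and 9.02 against 8.94, 9.71 and 10.3 CPM, where control replicate 3 reaches into the treated range (0.25 ± 0.12, adjusted p = 0.54). Both genes overlap on opposite strands in GENCODE M21, so some of their reads may be shared, and neither was called without control replicate 2.

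The guanylate-binding proteins Gbp2 and Gbp3, GTPases that attack intracellular pathogens, and Nmi, a STAT-interacting protein, were not called by edgeR with 6 libraries and were called without control replicate 2. Gbp2 had 4.81, 5.82 and 4.37 CPM in the controls and 6.94, 5.95 and 6.89 CPM with red blood cells (1.32-fold, edgeR adjusted p = 0.34). Gbp3 had 1.74, 2.72 and 2.02 against 3.5, 3.38 and 2.72 CPM (1.48-fold, adjusted p = 0.36), and control replicate 2 and treated replicate 3 met at the same rounded value. Nmi had 5.50, 7.78 and 4.88 against 7.11, 8.35 and 9.0 CPM (1.34-fold, adjusted p = 0.45), and only control replicate 2 overlapped the treated libraries. In each of the 3 genes control replicate 2 was the highest control. Without it the log2 fold changes were 0.52, 0.77 and 0.65 with edgeR adjusted p of 0.012, 0.013 and 0.0004. With 6 libraries and library quality weights in limma's voom they were 0.53, 0.70 and 0.65 with adjusted p of 0.011, 0.027 and 0.0018. That fit called 651 genes over the whole table, against 164 in the main fit. In DESeq2 none of the 3 genes was called (adjusted p of 0.51, 0.52 and 0.50). Reads of Gbp2 and Gbp3 can be shared with close copies.

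**Figure D4:**
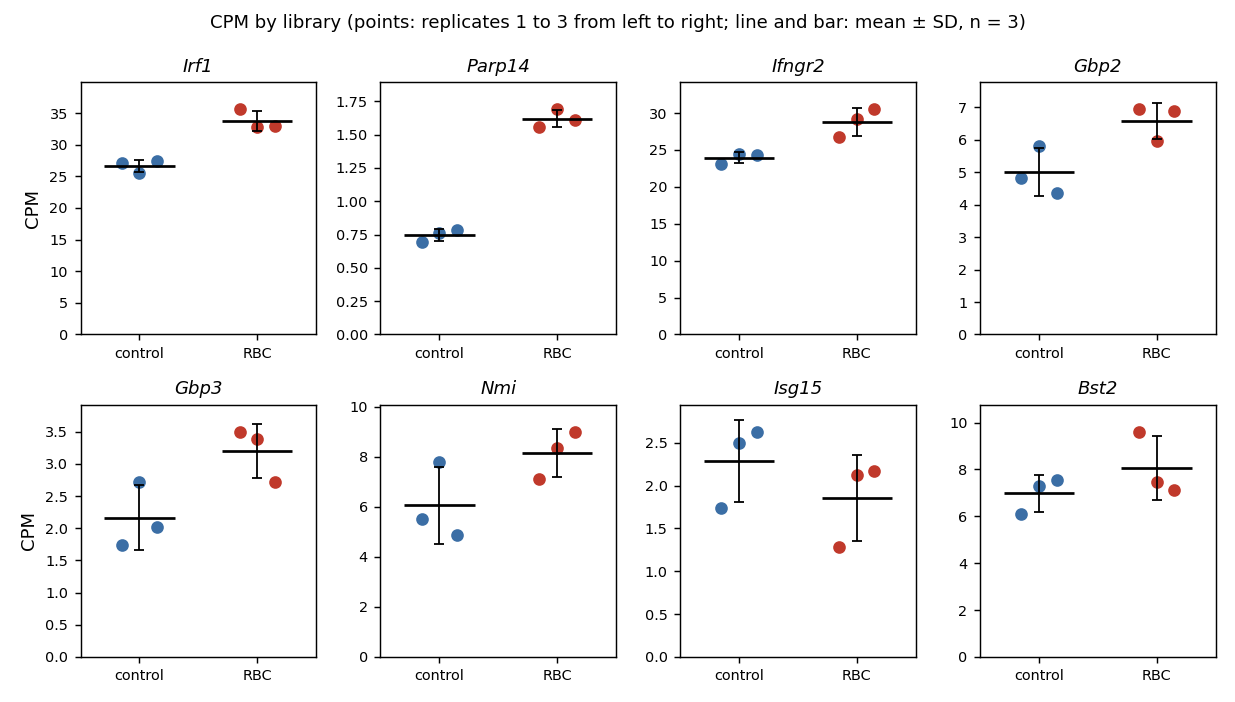
CPM in each library of 8 members, controls in blue and treated libraries in red, replicates 1 to 3 from left to right, with the mean and SD (n = 3). Irf1, Parp14 and Ifngr2 separate the groups, in Gbp2, Gbp3 and Nmi control replicate 2 is the highest control, and Isg15 and Bst2 overlap.

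The abundant induced targets, genes that cells also express without interferon, had values close to the controls. Samhd1, which degrades deoxynucleotides, had 26.2 ± 0.594 FPKM in the controls and 127, 122 and 123 against 123, 124 and 127 CPM. Adar, the enzyme that edits adenosine in double-stranded RNA, had 124, 95.3 and 123 against 126, 121 and 121 CPM, so that control replicate 2 alone lay below all other libraries. Its log2 fold change was 0.11 ± 0.10 (SE), and without control replicate 2 it was -0.003. Eif2ak2, the RNA-activated kinase PKR, had 84.2, 77.2 and 82.3 against 83.6, 87.6 and 86.1 CPM (0.08 ± 0.06). Adar overlaps Chrnb2, and Eif2ak2 overlaps Gm26637, on the opposite strand.

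Bst2, the membrane protein tetherin, had 6.08, 7.29 and 7.57 CPM in the controls and 9.61, 7.48 and 7.11 CPM with red blood cells, with overlap (log2 fold change 0.21 ± 0.14 SE). The ubiquitin ligases Trim25 and Trim21, Ifi35 and the apoptosis factor Xaf1 had log2 fold changes of 0.03, 0.19, 0.11 and 0.06, all without a call and with overlapping groups. Without control replicate 2 these were -0.05, 0.40, 0.16 and 0.01. Of the 10 induced targets with an ISRE in a promoter window, 6 were tested, with log2 fold changes from -0.30 (Isg15) to 0.56 (Gbp3). By edgeR with 6 libraries 0 of them were called. Parp14, the only called induced target, had no promoter window, so that count says nothing about the ISRE.

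Genes of the pathway outside the set were read from lists by role, and 121 of their symbols are listed and 83 were tested. With red blood cells edgeR called 3 higher (3.61%, beside 1.16% of all genes) and 0 lower (beside 0.303%). Slfn2, counted here and in the higher counts that follow, passed the count filter only through the treated libraries. So did Nod1, counted at the unadjusted p. Cxcl10, also called, had 0.504 CPM in control replicate 3, under the level of 10 counts at median depth (0.555 CPM). The shares called higher therefore rest in part on the filter. At an unadjusted p under 0.05 there were 11 higher (13.3%, beside 5.42%) and 3 lower (beside 4.58%). DESeq2 called 4 higher and 1 lower, beside 1.51% and 0.598% of all genes. Without control replicate 2, edgeR called 9 higher (10.7%, beside 4.19%) and 4 lower (beside 3.77%). Among the 17 interferon ligands 3 are listed, none with over 6 counts in a group: Ifne had 6 and 1, Ifnab 1 and 0, and Ifnz 0 and 3. Ifnb1 and Ifng are not listed.

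None of the 10 tested feedback genes and phosphatases was called or had an unadjusted p under 0.05 (edgeR), and Socs3, the feedback inhibitor with the smallest p among them, had 0.20 ± 0.12. The leukocyte-type factors Irf4 and Irf8 and Unc93b1, the chaperone of endosomal Toll-like receptors, had 0 counts in every control and 25, 20 and 27 counts over the treated libraries, at least 8.20-, 6.56- and 8.86-fold higher; the choice of these 3 came after seeing their values.

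The 3 called genes outside the set were Cxcl10, Ube2l6 and Slfn2. Cxcl10, a chemokine induced by interferon gamma and NF-kB whose promoter stretch above holds an ISRE and a kappaB match, had 0.811, 0.816 and 0.504 CPM in the controls and 3.11, 2.84 and 2.72 CPM with red blood cells (4.04-fold, edgeR adjusted p = 0.0021), and its call was kept with each library left out. Ube2l6, the conjugating enzyme for Isg15, had 9.27, 10.4 and 8.80 against 14.9, 14.3 and 14.5 CPM (1.53-fold, adjusted p = 0.01), and the call was lost without any of the 3 treated libraries (adjusted p up to 0.073). Slfn2, a Schlafen protein prominent in leukocytes, had 1 count over the controls and 35 over the treated libraries, a ratio of 34.5 (exact 95% interval 5.79 to 1400.0), in the libraries that also held Ptprc and Adgre1. Slfn2 passed the count filter only through the treated libraries, so its call adds nothing to these counts. The call was lost without treated replicate 2 (edgeR adjusted p = 0.064).

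The cytosolic DNA-sensing relative Ifi204 was the tested sensor outside the set with the smallest p, and it was lower in all 3 treated libraries, with 56.2, 65.4 and 57.8 against 48.3, 47.9 and 48.4 CPM (log2 fold change -0.31 ± 0.07 SE, edgeR adjusted p = 0.086). It was called lower by DESeq2 (adjusted p = 0.032) and, without control replicate 2, by edgeR (-0.24, adjusted p = 0.00047). Close copies such as Ifi203 can share its reads. Traf3, an adaptor between the sensors and Tbk1, had 101, 78.9 and 102 against 113, 111 and 117 CPM (0.28 ± 0.10, adjusted p = 0.34; without control replicate 2 it was 0.17 with 0.0035). Nod1, a sensor of bacterial peptidoglycan, had 9, 11 and 7 against 17, 12 and 15 counts without a call.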

How the data were processed

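Groups and replicate numbers came from the sample titles. The authors deposited raw counts per gene symbol, whole numbers without normalization, and FPKM values that, from the ratio of both tables, divide the same counts by gene model length and by the library's listed total (largest relative departure 3.4e-08 over 10948 genes). Per the submitters' processing notes the build was GRCm39, and per the labels' protocols libraries were made with a stranded mRNA kit; the sources used here do not give the aligner, counter, strand setting or annotation.

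The test was that of edgeR 4.0.16, run in R 4.3.3 on the counts (filterByExpr with a minimum count of 10 and minimum total of 15, TMM scaling, glmQLFit and glmQLFTest, two-sided). This kept 11208 genes, and p-values were Benjamini-Hochberg adjusted over them, with calls made under 0.05. CPM are relative to the library total, with 6 values per gene. SE is the log2 fold change divided by the square root of F. All 34 tested members had a control mean above 0.555 CPM, the level of 10 counts at median depth. Members and lists were chosen with earlier results of these data known. Values by library are given for called members, for the 3 smallest p (8 among induced targets) and the 3 highest FPKM of each role, and for untested members with at least 10 counts in a group; of other pathway genes, for called ones and from the 3 smallest p of each list. Other members and the genes stated as chosen later are added for completeness.

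Alternatives were RLE or no scaling, DESeq2 1.42.0, voom of limma 3.58.1 without and with library quality weights, other filters, leaving out erythroid genes, an offset for gene length, each library left out in turn, a replicate block, and limma on log2 FPKM. The fit was tested on simulated data, where it recovered 56.1% of 1.25-fold, 91% of 1.5-fold and 98.5% of 2-fold changes. The simulation gave all genes the same spread between replicates and set no library apart. It therefore cannot say how the fit performs with control replicate 2 in these data. Genes that the rule names and that are not in the text are not reported here. No column of another sample was used. Floors and exact intervals cover counting error only.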

Additional observations from a re-analysis of the deposited data

How the results depend on the processing

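Without control replicate 2, which stood apart, the count of called genes over the whole table went from 164 to 899, and it lay between 62 and 899 with a library left out; it was 651 with quality weights in voom and 341 with the offset for gene length. The count of called members, 2 with 6 libraries, lay between 0 and 6 with a library left out. It was 1 in DESeq2, 6 with quality weights, 0 with the replicate block, and 0, 1 and 1 on log2(FPKM + 1), log2(FPKM + 0.1) and unfiltered FPKM. For induced targets these values were 0 to 4, then 0 in DESeq2, 4 with quality weights, 0 with the block and 0 and 0 on filtered FPKM. For receptors, kinases, factors and sensors they were 0 to 2, then 2 with quality weights, 0 with the block, 2 with the length offset, and 0 and 0 on log2(FPKM + 1) with and without a filter. Other pathway genes gave 1 to 13 with a library left out, 5 in DESeq2, 13 with quality weights and 7 with the length offset, against 3. The median log2 fold change of induced targets, 0.11, was 0.09 to 0.17 when leaving out a library, 0.15 with quality weights, 0.20 without a filter (24 genes), 0.15 at 1 CPM and 0.18 with the length offset. That of the receptors, kinases, factors and sensors, 0.05, lay between -0.003 and 0.09.

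The deviations of same-numbered libraries had correlations of -0.0141, 0.0448 and 0.0630, against -0.0666 to 0.0343 for differently numbered ones. With 3 libraries per group these cannot decide whether replicates were paired, and the labels do not say. With the replicate block 126 genes were called.

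Among the 36 named genes, signs turned for 8, none of them called. With quality weights these were Tyk2 (-0.01), Irf2 (-0.01) and Mavs (-0.02), and with the length offset Jak2 (-0.06), Irf2 (-0.04) and Samhd1 (-0.01). With a library left out the ranges were -0.03 to 0.11 for Tyk2, -0.01 to 0.07 for Jak2, -0.03 to 0.10 for Irf2, -0.02 to 0.09 for Cgas, -0.02 to 0.05 for Tbk1, -0.02 to 0.04 for Mavs, -0.0005 to 0.03 for Samhd1 and -0.003 to 0.17 for Adar. Over 36 named genes and their alternatives, 615 of 669 values kept direction and side of the threshold. The cause was not tested. At these depths genes with about 10 counts in fewer than 3 libraries were not tested in the main fit.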
